A study of Mus musculus with 6 samples.

Results

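H3K27me3 peaks that were present both in control granulosa cells (GCs) and after dihydrotestosterone (DHT) are described here. H3K27me3 is trimethylation of lysine 27 on histone H3. The peaks were chosen by position: a DHT peak was a member when it overlapped a control peak by at least 1 bp on chromosomes 1 to 19, and each was paired with the control peak it overlapped. Of 3787 DHT peaks on these chromosomes 640 were members, a share of 16.9% (95% Wilson interval 15.7 to 18.1%), and 641 of 15203 control peaks were their partners (4.22%, 95% interval 3.91 to 4.55%). This gave 641 pairs, because 1 DHT peak overlapped 2 control peaks. The members had to be called in both lists, so their presence, strength and size are given as a description without a test.

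The GCs came from wild type C57BL/6J mice aged 8 to 9 weeks, which all 6 samples shared, and cells of many mice were pooled before plating, so the samples are dishes and not single animals. The 3 control samples received no agent. The 3 DHT samples received 25 nM DHT for 24 h. The authors deposited 1 peak list per group, with no value per sample, so the depth of the samples is unknown, there is no replicate check, and a difference between the lists could not be set against the spread between samples. Intervals cover counting error only. A list of peaks cannot show expression, and so the labelled cell type could not be checked by its markers.

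H3K27me3 is written by Polycomb repressive complex 2, whose catalytic subunit is Ezh2, and is erased by the demethylases Kdm6a and Kdm6b. The mark is found at silent genes and is best known from wide domains over CpG-rich promoters of developmental regulators such as the Hox genes. GCs surround and support the oocyte, respond to follicle stimulating hormone through Fshr and convert androgen to estrogen with aromatase (Cyp19a1). DHT is an androgen that aromatase does not convert.

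Sequence is shown for genes whose promoter was listed in both groups. A gene in both promoter lists need not hold an overlapping pair of peaks, and these lists include the sex chromosomes. The promoter lists of the authors, which count 1 kb to each side of the start site as promoter and hold names without values, shared 11 genes, which is 6.88% of the 160 control genes and 20% of the 55 DHT genes: Mir101c, Rn45s, Sfi1, Hint3, Olah, Dgkb, Cd22, Sp7, Oasl1, the X-linked claudin gene Cldn34c4 and 4931408C20Rik. Cd22 is a sialic acid binding receptor of B cells, Sp7 is a transcription factor of osteoblasts, Oasl1 belongs to the antiviral oligoadenylate synthetase family, and Rn45s is the precursor of ribosomal RNA. Of the 11 genes, 6 were also in both gene body lists, namely 4931408C20Rik, Dgkb, Hint3, Olah, Rn45s and Sfi1. The window of 250 bases before to 50 bases after the start is printed for 3 of these because they differ in CG dinucleotides, the sites of DNA methylation that are dense in CpG islands. The windows are from RefSeq on GRCm38.p6, and capitals mark each CG. The peaks are in mm9, so whether a peak lies inside a printed window was not determined.

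Hint3, a histidine triad nucleotide binding protein, chr10:30618317-30618616, minus strand, 29 CG dinucleotides:
Hint3: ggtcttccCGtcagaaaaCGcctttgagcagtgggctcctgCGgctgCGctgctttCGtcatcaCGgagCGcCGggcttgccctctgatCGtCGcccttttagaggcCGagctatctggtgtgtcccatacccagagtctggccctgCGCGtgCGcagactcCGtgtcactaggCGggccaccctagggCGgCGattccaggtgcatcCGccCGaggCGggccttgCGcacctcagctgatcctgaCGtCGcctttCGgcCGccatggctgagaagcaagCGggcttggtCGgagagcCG
Olah, a thioesterase that releases medium-chain fatty acids, chr2:3366520-3366819, minus strand, 7 CG dinucleotides:
Olah: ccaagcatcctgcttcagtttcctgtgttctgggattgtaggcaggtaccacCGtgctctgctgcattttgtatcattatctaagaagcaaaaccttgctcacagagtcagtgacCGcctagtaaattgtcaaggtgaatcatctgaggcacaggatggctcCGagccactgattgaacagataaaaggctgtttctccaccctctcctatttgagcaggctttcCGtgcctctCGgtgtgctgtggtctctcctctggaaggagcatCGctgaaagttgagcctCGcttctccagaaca
Dgkb, a diacylglycerol kinase, chr12:37879924-37880223, plus strand, 3 CG dinucleotides:
Dgkb: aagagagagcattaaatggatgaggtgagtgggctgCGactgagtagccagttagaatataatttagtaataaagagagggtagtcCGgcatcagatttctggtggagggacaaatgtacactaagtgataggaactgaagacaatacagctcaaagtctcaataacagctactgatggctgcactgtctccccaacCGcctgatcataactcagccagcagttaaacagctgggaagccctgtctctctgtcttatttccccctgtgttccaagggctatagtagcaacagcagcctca

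Of all RefSeq promoter windows of this length, 12.9% held as many CG dinucleotides as Hint3 or more, compared with 52.1% for Olah and 76.7% for Dgkb. Of the 11 genes 6 had a window in the RefSeq table, with a median of 5.5 CG dinucleotides, where the median of all 32851 windows was 7. At least 15 CG dinucleotides were found in 1 of the 6, Hint3, and in 34.6% of all windows. For genes in either promoter list the median was 7, and 30.9% of windows held at least 15. For genes in both gene body lists these values were 12 and 45.1%.

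Mir101c encodes a microRNA of the miR-101 family, which is known to target Ezh2. Its mature sequence is shown beside that of miR-101a-3p because the 2 are nearly the same molecule (capitals mark the seed, bases 2 to 8).
mmu-miR-101c: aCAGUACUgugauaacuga
mmu-miR-101a-3p: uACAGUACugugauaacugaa
The 19 bases of miR-101c are contained in the 21 bases of miR-101a-3p, from its base 2 onward, so that the seeds are offset by 1 base. RefSeq places miR-101c at chr9:3038680-3038698 in GRCm38.p6, on the minus strand. In that assembly this is 38.7 kb from the first mapped base of chromosome 9. Peaks at the start of chromosome 9, described further on, are in mm9, and positions were not carried from one assembly to the other, so the distance of miR-101c from them was not determined.

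The strongest peaks of either list were nearly all retained. Ranked by q-value, all 20 of the first 20 DHT peaks and all 20 of the first 20 control peaks had a partner. Among the first 100 there were 70 in the DHT list and 67 in the control list, and among the first 1000 there were 248 (24.8%) and 167 (16.7%). The caller reports each q-value as −log10 q, where a larger number means a stronger peak. At a −log10 q of 10 or more, 41 of 42 DHT peaks and 42 of 42 control peaks were retained. By width, all 13 DHT peaks over 2 kb had a partner, compared with 160 of 1442 DHT peaks (11.1%) that were 275 bp or shorter. In the control list 13 of 55 peaks over 2 kb had one. Most of the 13 wide DHT peaks lay in the first 100 kb of mapped sequence of chromosomes 9 and 11. A wider peak also meets the overlap rule more easily.

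**Figure D1:**
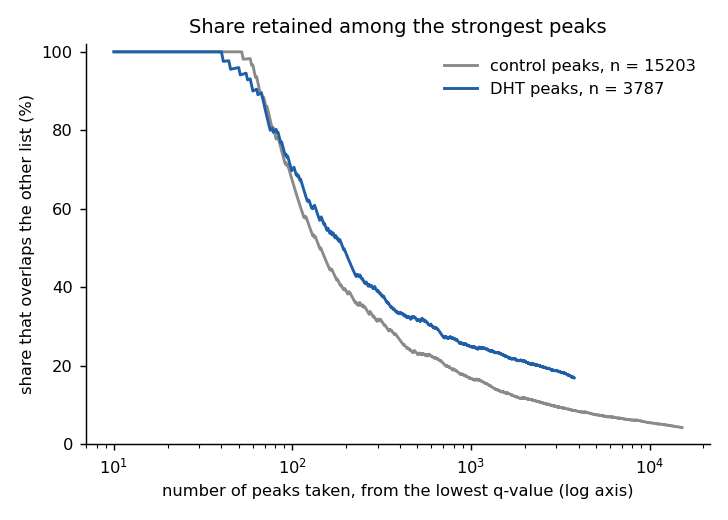
The share of peaks (%) that overlap the other list, on the y axis, is plotted against the number of peaks taken from the lowest q-value upward, on a log x axis, for the DHT list (blue) and the control list (grey). Both curves start at 100% and fall to 16.9% for all 3787 DHT peaks and to 4.22% for all 15203 control peaks.

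Retained peaks were wider and stronger than unpaired peaks of the same list. A wider peak meets the overlap rule more easily, so the difference in width follows in part from how members were chosen. Retained DHT peaks had a median width of 383 bp and a median fold enrichment of 4.36, the ratio of signal to local background, whereas the 3147 DHT peaks without a partner had medians of 304 bp and 4.18. In the control list the medians were 450 bp and 3.78 for retained peaks and 426 bp and 3.45 for the 14562 others. The tops of the lists differed more than the medians: no unpaired DHT peak exceeded a fold enrichment of 7.77 and no unpaired control peak exceeded 6.27, while retained peaks reached 14.4 and 14.9. Another peak of the same list lay within 10 kb of 45 of 640 retained DHT peaks (7.03%) and of 85 of 3147 unpaired ones (2.70%), but without peaks in the first 100 kb of mapped sequence of a chromosome the retained count was 24 of 616 (3.90%) and the unpaired count 85 of 3146 (2.70%). Retained peaks covered 361.9 kb, or 20.05% of the length of the DHT list, and 417.9 kb, or 4.74% of the control list. The stretch common to both was 256.2 kb.

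Within pairs, fold enrichment was higher after DHT in 508 of 641 pairs (79.3%, 95% interval 75.9 to 82.2%), with a median ratio of DHT to control of 1.15 (quartiles 1.03 and 1.26). The same direction was seen in the lists as a whole, whose medians stood in a ratio of 1.22, and in the unpaired peaks, at 1.21. Each fold enrichment was scaled to the background of the list it came from, so these ratios compare the 2 lists and not amounts of the mark. Most pairs were close: 381 of 641 had fold enrichments within 1.2 times of each other, 40 were at least 1.5 times higher after DHT and 1 was at least 1.5 times lower. The −log10 q was higher after DHT in 402 pairs (62.7%), with a median difference of 0.28. In 111 pairs the fold enrichment was higher and the −log10 q lower after DHT, and in 5 pairs the opposite held.

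The DHT peak was narrower in 355 pairs (55.4%, 95% interval 51.5 to 59.2%), wider in 283 and equal in 3. The median ratio of widths was 0.97 (95% interval 0.92 to 0.99, quartiles 0.64 and 1.17). This direction did not hold at stricter limits: with a q-value of 0.01 or less in both lists the median ratio was 1.00 (0.97 to 1.03). The shortest peak was 275 bp in the DHT list and 261 bp in the control list, and 160 DHT peaks and 72 control peaks of the pairs were at that lower limit. One edge usually lay beyond its counterpart, since in 402 pairs neither peak held the other, in 108 the DHT peak held the control peak and in 131 the control peak held the DHT peak. The overlap had a median of 275 bp and made up 51.8% of the length the 2 peaks spanned together. In 379 pairs it covered at least 50% of both peaks.

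Pairs with a −log10 q of at least 10 in both peaks were set apart. There were 36 of 641 (5.62%), on 15 of 19 chromosomes, with 6 on chromosome 9 and 4 each on chromosomes 4 and 11. In these pairs the peak looked alike in both lists. The fold enrichment after DHT ranged from 1.78 to 14.4 (median 8.77) and in control from 1.97 to 14.9 (median 8.19). The median ratio was 1.04 (quartiles 0.98 and 1.09), 25 pairs were higher and 11 lower after DHT, and 34 of 36 were within 1.2 times. The overlap was 95.6% of the length spanned (median), and 28 of 36 pairs had both edges within 50 bp, a limit chosen after seeing the data. The DHT peak began a median of 10.5 bp before the control peak and ended 9 bp after it. For the 605 other pairs the median ratio of fold enrichment was 1.15, the overlap 48.9% of the length spanned, and 64 pairs had both edges within 50 bp. The limit had to be met by both peaks, so pairs strong in a single list are among these 605.

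**Figure D2:**
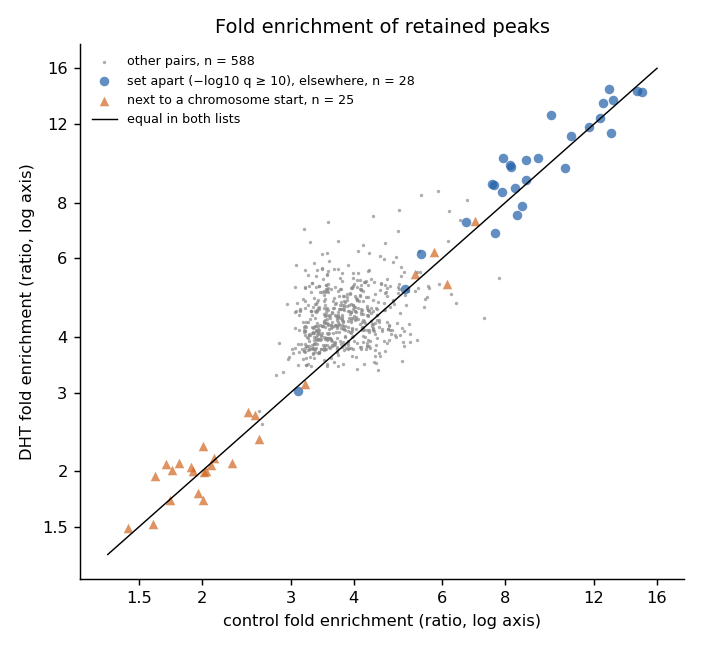
The fold enrichment of the DHT peak (y axis, ratio, log scale) is plotted against that of its control partner (x axis, ratio, log scale) for all 641 pairs, with pairs set apart away from chromosome starts as blue circles (28), pairs next to a chromosome start as orange triangles (25, of which 8 were set apart) and the rest in grey (588). The grey points lie mostly above the line of equal values, while blue and orange points follow it from 1.49 to 14.4.

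The strongest pair lay at chr9:35112591-35113339 after DHT (fold enrichment 12.4, −log10 q 305) and at chr9:35112603-35113342 in control (12.3 and 296). The second was chr12:3109677-3110335 after DHT, with a fold enrichment of 14.2, and chr12:3109689-3110322 in control, with 14.6. The third was chr4:70038931-70039509 after DHT, at 14.2, with a control peak of 14.9. Across the 10 strongest pairs the ratio of fold enrichment stayed between 0.95 and 1.12, the ratio of widths between 1.00 and 1.09, and no edge differed by more than 33 bp. The others of the 10 began at chr2:98502320, chr6:103598848, chr9:24346252, chr13:77577961, chr12:75904692, chr3:56379211 and chr8:24205751 after DHT. The authors kept uniquely mapped reads only, and how well such reads can cover these 10 positions was not tested.

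The pairs set apart came in wide and in compact forms. In 8 pairs both peaks were at least 1 kb wide, with DHT widths from 1618 to 7590 bp and low fold enrichments from 1.99 to 6.13 after DHT and from 2.02 to 5.43 in control. Of these 8 pairs, 5 lay within 100 kb of the start of a chromosome's mapped sequence. The other 28 had a median width of 590 bp after DHT and 576 bp in control, with median fold enrichments of 9.67 and 8.71. The widest was chr9:2999858-3007447 after DHT, 7590 bp at a fold enrichment of 2.14, with a control peak of 7019 bp at 2.11. The peak at chr2:98502320-98507567 was 5248 bp wide after DHT and 5229 bp in control, with fold enrichments of 3.03 and 3.10.

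Exceptions to this likeness were few, and the 2 below were picked after their values were seen. At chr18:40467522-40468033 the −log10 q was 43.4 after DHT and 83.9 in control. At chr2:181652062-181652958 the DHT peak was 897 bp wide and the control peak 1739 bp, and the −log10 q was 35.8 and 69.6. The latter is 1 of 3 pairs within 15337 bp near the far end of chromosome 2. In a further 11 pairs only 1 of the peaks reached a −log10 q of 10. Among these, chr19:45724399-45724899 had 4.76 after DHT and 17.0 in control, and chr1:72742694-72743323 had 17.0 and 6.20.

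The limit of 10 cut through a continuum. Just above it by the smaller value stood chr11:34495103-34495906, with 10.2 after DHT and 22.5 in control, and chr11:3022024-3022530, with 11.8 and 10.4. Just below stood chr16:3350086-3351397, with 9.71 and 9.77, and chr17:13743866-13745866, with 9.23 and 10.96. The 4 pairs had fold enrichments between 5.14 and 7.63, within the range of those set apart. Another pair just below, chr9:3015087-3019429, had a −log10 q of 9.64 after DHT and 9.05 in control. Its fold enrichments of 1.72 and 1.73 were under the lowest of the pairs set apart.

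Positional match was closer in stronger pairs. Grouped by the smaller −log10 q of the pair, the overlap was 40.8% of the length spanned in the 294 pairs under 2, 52.7% in the 230 pairs from 2 to 3, 63.0% in the 63 from 3 to 5, 87.4% in the 18 from 5 to 10 and 95.6% in the 36 at 10 or more. Over the same groups the median distance between the starts went from 153.5 bp through 107, 79 and 37 bp to 11.5 bp. Both edges were within 50 bp in 18 of 294 pairs of the weakest group and in 28 of 36 of the strongest. The grouping uses the same peak calls as the edges, so this is a description of the members.

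**Figure D3:**
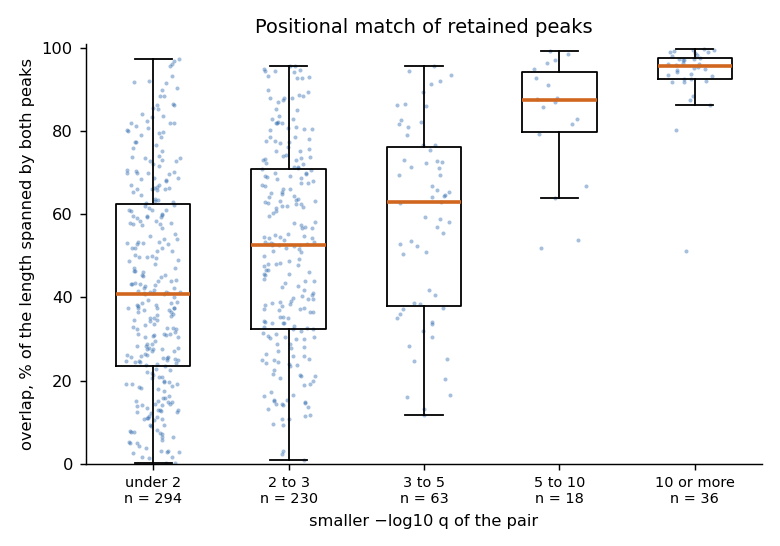
The overlap of each pair, as % of the length that both peaks span, is plotted on the y axis for 5 groups of the smaller −log10 q (x axis). Boxes show quartiles with the median in orange, whiskers reach 1.5 times the box height at most, and points are pairs. The median is 40.8% in the weakest group and 95.6% in the strongest.

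The ratio of fold enrichment drew closer to 1 along the same order. Its median was 1.19 under a −log10 q of 2, then 1.14, 1.09 and 1.08, and 1.04 at 10 or more. The ratio of widths had medians of 0.88, 0.98, 0.96, 1.00 and 1.02, and its spread narrowed, from quartiles of 0.55 and 1.18 in the weakest group to 1.00 and 1.05 in the strongest. Across pairs, Spearman's rho between control and DHT was 0.95 for fold enrichment and 0.97 for width in the 36 pairs set apart, and 0.34 and 0.27 in the 605 others. Pairs are regions of the same 2 lists and not replicates, and the pairs set apart span a wider range of values. Grouping by the smaller −log10 q puts a pair of a strong and a weak peak into a weak group. The order of the ratios, their spread and the rho values may therefore follow in part from the grouping, which was not tested.

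**Figure D4:**
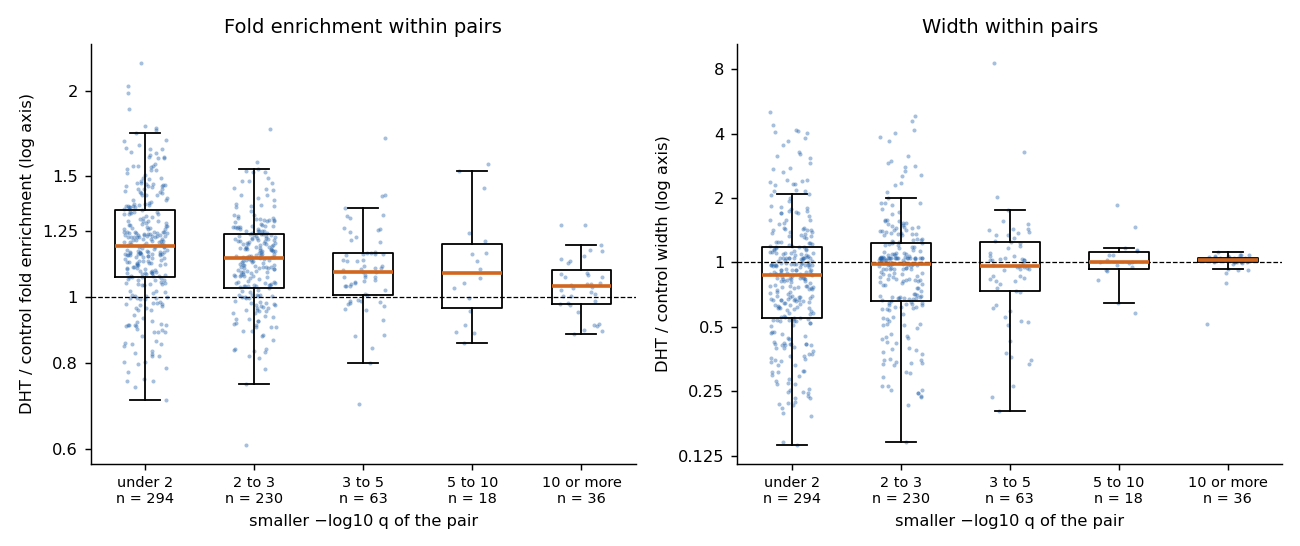
The ratio of DHT to control fold enrichment (left, log y axis) and of DHT to control width (right, log y axis) is plotted for 5 groups of the smaller −log10 q, with quartile boxes, whiskers of at most 1.5 times the box height, medians in orange and a dashed line at 1. The median fold enrichment ratio is 1.19 in the weakest group and 1.04 in the strongest, and the widths spread least in the strongest group.

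The highest ratios of DHT to control fold enrichment were in pairs with a weak control peak, where a low divisor by itself raises the ratio. The highest ratio was 2.20, at chr13:70179053-70179363, with a fold enrichment of 6.99 after DHT and 3.18 in control. Next came chr6:95112426-95112901, with 7.25 and 3.56, and chr8:49753589-49753968, with 6.51 and 3.28. All 3 had a control −log10 q under 2. The lowest ratio was 0.61, at chr18:82390176-82391031, where the fold enrichment was 4.41 after DHT and 7.25 in control. The next lowest, 0.70, was at chr19:45724399-45724899, with 5.42 and 7.76.

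Overlap by 1 bp admitted pairs that barely touched. The smallest overlaps were 2 bp at chr6:110882035-110883223, 3 bp at chr7:94217788-94218092 and 9 bp at chr1:39205412-39206198. Just outside the rule, the DHT peak at chr18:65362763-65363782 began at the base after a control peak ended, and those at chr13:98509434-98509780 and chr9:32757611-32758068 lay 1 and 2 bp away. Few other peaks came near: 42 of 3147 unpaired DHT peaks had a control peak within 500 bp, 416 (13.2%) within 10 kb, and the median distance was 53013 bp.

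The share of DHT peaks retained ranged from 13.0% on chromosome 3 (95% interval 9.25 to 17.9%) to 25.1% on chromosome 11 (19.6 to 31.7%), with 20 to 49 retained peaks on a chromosome. Chromosome 11 also held 16 of the 25 pairs that lay within 100 kb of the start of mapped sequence, which in the mouse assembly follows a placeholder of 3 Mb at the centromere end. This window was chosen after seeing the data. Without it, 34 of 180 DHT peaks on chromosome 11 were retained (18.9%, 95% interval 13.8 to 25.2%). The other 9 of these 25 pairs were on chromosome 9 (7), chromosome 4 (1) and chromosome 18 (1).

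Next to chromosome starts nearly every DHT peak was retained, 24 against 1 that was not, and in the control list 25 against 9. These pairs were wide and low. Their median width was 1607 bp after DHT and 1531 bp in control, and their median fold enrichment 2.08 and 2.02, compared with 4.38 and 3.79 in the 616 other pairs. On chromosome 9, 7 pairs lay within 38569 bp, with fold enrichments from 1.49 to 2.66 after DHT and from 1.43 to 2.55 in control. The only DHT peak with 2 partners was here too, at chr11:3076259-3079374, over control peaks at chr11:3076088-3077629 and chr11:3078983-3079347. Fold enrichment was higher after DHT in 14 of the 25 pairs, with a median ratio of 1.04, against 1.15 away from chromosome starts. Of the pairs set apart 8 of 36 were next to a chromosome start, and 28 remained without them. The authors kept uniquely mapped reads only, and how much of these stretches such reads can cover was not tested.

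The genes over which the mark was listed in both groups were taken from the gene body lists of the authors. A gene in both lists need not have overlapping peaks, since long genes can hold several, and these lists include the sex chromosomes. Of 3608 genes in either list 682 (18.9%) were in both. They were long genes, with a median RefSeq length of 227.3 kb, compared with 80.6 kb for genes in the control list alone, 66.6 kb in the DHT list alone and 17.1 kb for all protein-coding genes. Each share of listed genes below is read against 18.9%, and against gene length, whose part in it was not tested. The gene lists were chosen with earlier results of these data known, so the shares are a description.

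Several families of adhesion and signaling genes had members in both lists. Of 31 neurexin, contactin and other synaptic adhesion genes, 25 were listed and 16 of these (64.0%) were in both lists, among them the presynaptic neurexin Nrxn3, the neuroligin Nlgn1, and Cntnap2, Cntn4, Cntn5, Csmd1, Lsamp and Negr1. The members of this family have a median length of 754.7 kb. Glutamate receptors had 10 of 19 listed genes in both lists, including the NMDA receptor subunit Grin2b, the kainate receptor subunits Grik1, Grik3 and Grik4, and the metabotropic receptors Grm5, Grm7 and Grm8. Among axon guidance genes the count was 8 of 21, with the netrin receptors Dcc and Unc5d, the Slit receptor Robo2 and its ligand Slit3. Receptor tyrosine phosphatases had 7 of 13, including Ptprd, Ptprk and Ptprt, cadherins 6 of 12, including Cdh4 and Cdh13, and phosphodiesterases, which break down cyclic nucleotides, 5 of 14 (Pde1c, Pde4b, Pde4d, Pde9a and Pde11a). Over all members, median lengths were 298.2 kb for glutamate receptors, 231.4 kb for axon guidance genes and 150.9 kb for receptor tyrosine phosphatases. They were 147.7 kb for cadherins and 122.7 kb for phosphodiesterases.

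**Figure D5:**
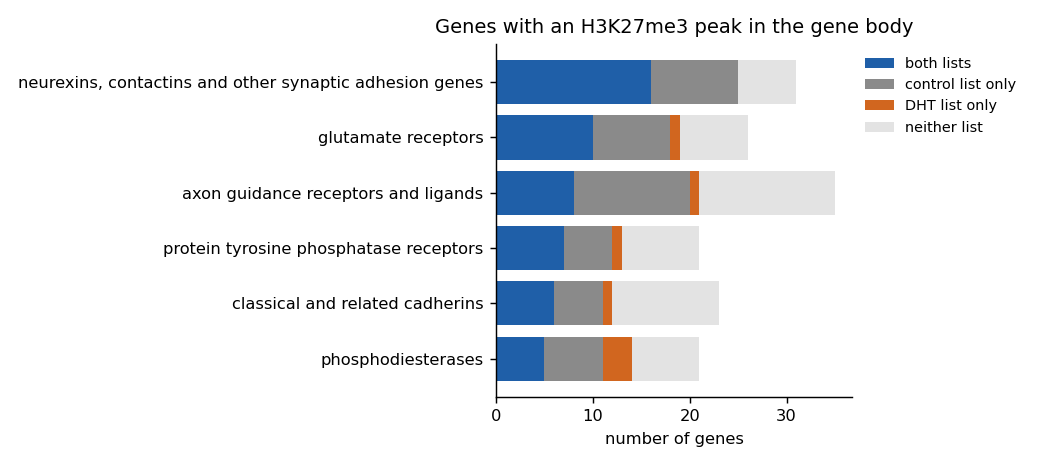
The number of genes (x axis) with a peak in the gene body is shown for 6 gene families as stacked bars, split into both lists (blue), control list only (grey), DHT list only (orange) and neither (light grey). The synaptic adhesion family has 16 of 31 members in both lists and none in the DHT list alone, whereas phosphodiesterases have 5 of 21 in both.

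Of 26 genes of granulosa cells 11 were listed, and 1 of these (9.09%), the hormone receptor Fshr, was in both lists. The lengths of these genes were not computed, so this share cannot be read against gene length. The paper reports a lower H3K27me3 signal along the gene body of Fshr after DHT, which a list of names cannot show. The control list alone held 9, among them the luteinizing hormone receptor Lhcgr, aromatase Cyp19a1, the transcription factor Runx1 and Smad3, which carries signals of the TGF-beta family. Nr5a2, a nuclear receptor of ovarian steroid synthesis, was in the DHT list alone. For theca and stroma 1 of 4 markers was listed, Dcn, in control alone, and of 3 oocyte markers 0 were listed. Among 22 Polycomb and H3K27 demethylase genes, the demethylase Kdm6a was in both lists, Ezh2, Jarid2 and Rnf2 were in the control list alone, and Aebp2 was in the DHT list alone. None of 20 Hox genes was in either list.

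The authors also listed genes regulated by DHT in these cells, and some were in both gene body lists. Among the 22 upregulated genes with an entry for the gene body there were 5: Erg, an ETS transcription factor, Gsg1l, an auxiliary subunit of AMPA receptors, Palmd, the phosphodiesterase Pde11a and the lipid kinase Pik3c2g. Of 15 downregulated genes there were 2, the adhesion gene Cntnap2 and Reln, a secreted guidance protein. These are shares of 22.7% (95% interval 10.1 to 43.4%) and 13.3% (3.74 to 37.9%), beside 18.9% of all listed genes. The paper counts fewer downregulated genes with gene body peaks than the 15 listed here. Of the regulated genes linked to an enhancer, which need not have an entry for the gene body, 5 of 66 upregulated genes (7.58%) and 1 of 33 downregulated genes (3.03%) were in both, and these were the same 5 genes and Reln. The 18.9% covers listed genes only, so it is not a base for these 2 shares, and no matching share was computed. According to the paper, regulated genes were compared with genes that hold peaks in the gene body. The enhancer lists used the correlation of H3K27me3 at enhancers with expression. Entry to these lists thus already used H3K27me3 data, so the lists are not independent of the peaks. None of these regulated genes was in both promoter lists.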

How the data were processed

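H3K27me3 ChIP-seq libraries of 3 control and 3 DHT samples were mapped by the authors to mm9 with Bowtie2 2.3.4. According to the methods, reads that did not map uniquely were left out. Broad peaks were called with MACS2 2.1.1 with a q-value limit of 0.05. The deposited broad peak lists, 1 per group, give each peak a score, a fold enrichment (a ratio to local background), a −log10 p-value (not used) and a −log10 q-value. Gene lists were deposited as names. How replicates were combined and whether an input was used are not given in the sources used here. PCR duplicates were removed according to the methods, but the peak names carry an automatic duplicate setting.

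Peaks were paired by an overlap of at least 1 bp, counted from 1, in Python 3.11.15 with numpy 2.4.6, pandas 2.3.3 and scipy 1.17.1. Plots used matplotlib 3.10.9. The pairing was tested on simulated data. Shares carry 95% Wilson intervals. Groups followed the labelled agent. With 1 list per group no test between groups was made. The members and lists were chosen with earlier results of these data known. Named regions were the 10 strongest pairs by the smaller −log10 q, the 5 widest, the 5 highest and 5 lowest ratios of fold enrichment and of width, pairs with several partners, the 3 smallest overlaps, the 3 nearest misses and the 5 pairs on each side of a −log10 q of 10, of which the text prints part. Named genes were members of fixed gene lists in both gene lists, and some genes under this rule are left out of the text. Stricter q-values, other overlap rules, width measures and list sizes were tried as alternatives. No mm9 annotation was used here, so peaks were not assigned to genes. Promoter and microRNA sequences are from RefSeq on GRCm38.p6.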

Additional observations from a re-analysis of the deposited data

How the results depend on the processing

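No paired analysis was possible because each group has 1 pooled peak list, and fits that leave out a replicate were not run for the same reason. Of 54 alternatives over 7 results, 38 stayed within the set range, 14 moved and 2 changed side. With q-values of 0.01 or less in both lists, 13.9% of DHT peaks and 5.88% of control peaks were retained, the median ratio of fold enrichment was 1.11, that of width 1.00, just above 1 and so on the other side, and the median difference of −log10 q was 0.16. At 0.001 or less these values were 11.9%, 8.58%, 1.07, 1.01 (again the other side of 1) and 0.11. A reciprocal overlap of 50% gave 10.01% and 2.49%, with a width ratio of 1. With the control list cut to the number of DHT peaks, 8.53% and 8.56% were retained. Counting width above the shortest peak of each list gave a width ratio of 0.73. The cause of these moves was not tested. Each alternative printed above other than the last kept fewer pairs than the reported pairing. Fold enrichment was higher after DHT at the median under every alternative run, and 27 to 54 pairs were set apart as the rule for them was varied. The depth of the samples is unknown and limits how near-threshold peaks can be compared.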

Other observations

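Chromosome X, which the pairing left out, held 32 further pairs, made by 32 of 186 DHT peaks (17.2%), and fold enrichment was higher after DHT in 24 of them, with a median ratio of 1.07. On X, 2 pairs reached a −log10 q of 10 in both lists. At chrX:73843768-73844691 the fold enrichment was 8.84 after DHT and 8.99 in control, and at chrX:139917330-139917867 it was 14.3 and 13.3. Their starts differed by 6 and 15 bp. Chromosome Y held 1 control peak and 2 DHT peaks, with 1 pair.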
